A study of Rattus norvegicus with 2 samples.

Results

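Tanycytes are radial glia-like cells that line the floor and the lower walls of the third ventricle, next to the hypothalamic nuclei, and reach into the tissue with long processes. They take up hormones and nutrients from the cerebrospinal fluid and the blood, convert thyroid hormone, contact the terminals of GnRH neurons in the median eminence, and keep features of neural progenitors. Higher up, the ventricle is lined by ependymal cells, whose motile cilia move the cerebrospinal fluid. The 8 genes chosen by name were Rax, Lhx2, Vim, Nes, Gpr50 and Fgf10 for tanycytes, and Foxj1 and Ccdc153 for ciliated ependymal cells, and their expression was compared between prepubertal and pubertal rats. Of the 8 genes, 7 were found by gene name, with 9 transcripts, among 22777 genes with 26324 mRNA transcripts. Foxj1, the transcription factor that switches on the genes of motile cilia, had no row under its name and was not analysed here.

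The hypothalamus was taken from female Sprague Dawley rats before puberty, at postnatal day 25, and at the first estrus, at postnatal day 35, with no treatment at either stage. The study used 3 rats per stage, and the files hold 1 column per stage, called a library below, so differences between stages could not be set against the spread between rats. How the 3 rats were combined into a column is not given in the sources used here. Age and puberty differ between the stages together and cannot be told apart. The methods also state that tissue was taken in 1 phase of the cycle, and how this applies to the prepubertal rats is not given in the sources used here. Expression is given as FPKM, the number of fragments divided by the length of the transcript and the depth of the library, and a gene is the sum of its transcripts. The log2 ratio is that of (FPKM + 1), pubertal over prepubertal, and is above 0 for genes with a higher level at puberty. Actb, the reference gene of the study's quantitative PCR, was listed at 763 and 576 FPKM. Making it equal takes a factor of 1.32 on the pubertal library, which moves the median log2 ratio of the 18052 genes above 0 in a library up by 0.30.

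Of 9 marker genes of the hypothalamus 8 were higher and 1 lower at puberty (9 and 0 with Actb made equal), with a median log2 ratio of 0.33 and a summed level of 2660 and 4060 FPKM. By the mean of both libraries the highest were the neuropeptide genes Pmch (melanin-concentrating hormone) at 1680 FPKM before and 2720 FPKM at puberty, Oxt (oxytocin) at 411 and 686 FPKM and Avp (vasopressin) at 254 and 240 FPKM, although at puberty Hcrt (orexin), at 196 and 249 FPKM and named after its values were seen, stood above Avp. The part of this difference in the values of the tanycyte and ependymal genes was not tested. FPKM does not state how many fragments were counted, but low values of single-transcript genes fell on steps. With a tolerance of 0.05, 95.4% of 1975 low values in the prepubertal library and 95.2% of 2158 in the pubertal library were whole multiples of 1 step per kilobase. The steps correspond to 20700000 and 16200000 fragments, 1.28 times as many before puberty. They gave the number of fragments behind each gene, and from it an exact 95% interval that covers counting error only, not the spread between rats.

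On the deposited scale 5 of the 7 genes found (Rax, Lhx2, Vim, Nes and Gpr50) had a lower value at puberty and 2 (Ccdc153 and Fgf10) a higher one, but with Actb made equal only Rax was lower, and on either scale of FPKM + 1 no gene reached a 2-fold change (0 of 7). Among the 18052 genes above 0 in a library, 51.0% were lower and 49.0% higher, and 0.859% changed by 2-fold or more in either direction. A change of at least 1.5-fold was seen in 4.15% of these genes and in 0 of the 7. With Actb made equal, 16.6% of the genes were lower, 1.52% changed by 2-fold or more and 14.3% by 1.5-fold or more, the last with 1 of the 7, Ccdc153. The counting interval of the fold lay above 1 for 16.7% and below 1 for 20.3% of the 16638 genes with fragments in both libraries, and for 1 of the 7 each (Ccdc153 above, Nes below). These shares were 59.9% and 1.91% with Actb made equal, with 2 (Vim and Ccdc153) and 0 of the 7. The 7 genes had a median log2 ratio of -0.08, against -0.01 for the 18052 genes, whose quartiles were -0.16 and 0.13. A factor leaves the ratio of the FPKM of 2 genes within a library as it is, but on the scale of FPKM + 1 it moves low genes less than high ones. Between these scales the log2 ratio of Rax went from -0.16 to -0.03 and that of Vim from -0.08 to 0.32. Values below are on the deposited scale where no other is named.

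**Figure D1:**
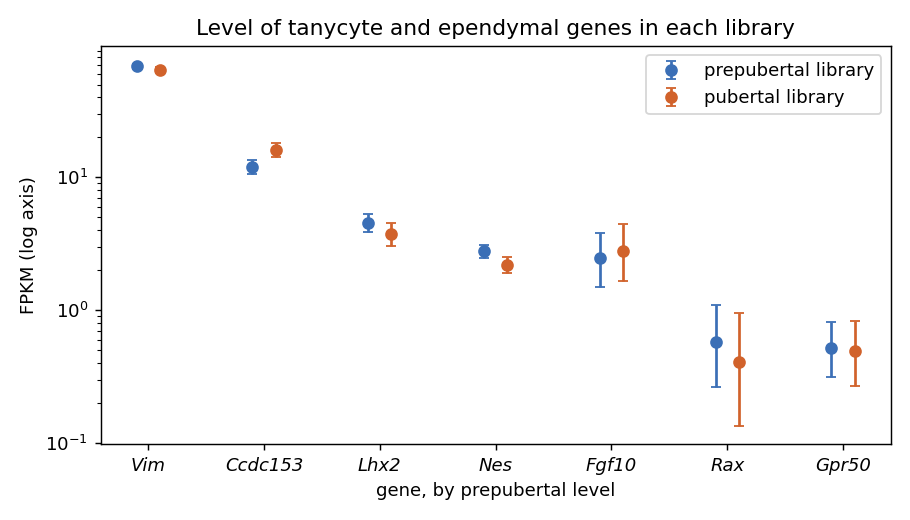
Level of each gene in FPKM (log axis) in the prepubertal (blue) and the pubertal library (orange), with exact Poisson 95% intervals for counting error. Vim lies at 68.5 and 64.7 FPKM, far above Rax and Gpr50 at 0.410 to 0.581 FPKM, and Nes and Fgf10 change places between the libraries.

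The levels of the 7 genes spanned a 131-fold range before puberty and a 158-fold range at puberty, on the FPKM scale, which is per length. Vim stood first in both libraries, at percentile 92.4 and 91.8 of all genes, followed by Ccdc153, at percentile 66.7 and 72.1, and Lhx2, at percentile 52.4 and 50.5. Nes and Fgf10 came next, in this order before puberty and in the opposite order at puberty, with intervals that overlapped in both libraries. At puberty the intervals of Lhx2 and Fgf10 overlapped too. Rax and Gpr50 were lowest, at percentiles between 34.3 and 36.1, and could not be put in an order by their intervals.

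Rax is the homeodomain transcription factor that defines tanycytes in the adult hypothalamus and is needed for them to form. Rax (ENSRNOG00000016944) was measured at 0.581 FPKM before puberty and at 0.410 FPKM at puberty. These levels rest on 9 and 5 fragments, and the fold of 0.707 has an interval of 0.186 to 2.35. No difference in Rax was detectable at this depth.

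Lhx2, a LIM homeodomain factor that acts with Rax in tanycyte and eye development, was listed at 4.55 and 3.75 FPKM (ENSRNOG00000010551), on 155 and 100 fragments. The fold was 0.824, with an interval of 0.634 to 1.07 that includes no change. Nearly all of the Lhx2 signal was assigned to 1 of its 2 annotated transcripts, as the other, of 1903 nt, was listed below 0.002 FPKM in both libraries. Outside the ventricle Lhx2 is also expressed in the cortex, the hippocampus and parts of the thalamus. Of the 4 thalamic markers, 4 were lower at puberty (3 with Actb made equal), with a summed level of 136 FPKM before and 102 FPKM at puberty. Gbx2 went from 4.29 to 2.24 FPKM and Tcf7l2 from 19.9 to 12.2 FPKM. Of the 5 markers of the cortex and hippocampus 3 were lower on either scale, with a summed level of 7.90 and 4.31 FPKM, among them Neurod6 at 5.08 and 2.36 FPKM. All of these markers were above 0 in both libraries, and their part in the Lhx2 value was not tested.

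Other homeodomain factors of the developing hypothalamus and eye were measured at similarly low levels. Of 6 such genes 2 were higher and 4 lower at puberty, with a median log2 ratio of -0.08 that became 0.10 with Actb made equal. Six3, which acts early in the ventral forebrain, was listed at 1.80 and 2.29 FPKM, and its relative Six6 at 0.746 and 0.658 FPKM. Nkx2-1, which specifies the ventral hypothalamus, was listed at 2.67 and 2.47 FPKM. The intervals of the fold of all 3 genes included 1, at 0.726 to 2.23 for Six3, 0.574 to 1.34 for Six6 and 0.688 to 1.24 for Nkx2-1.

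**Figure D2:**
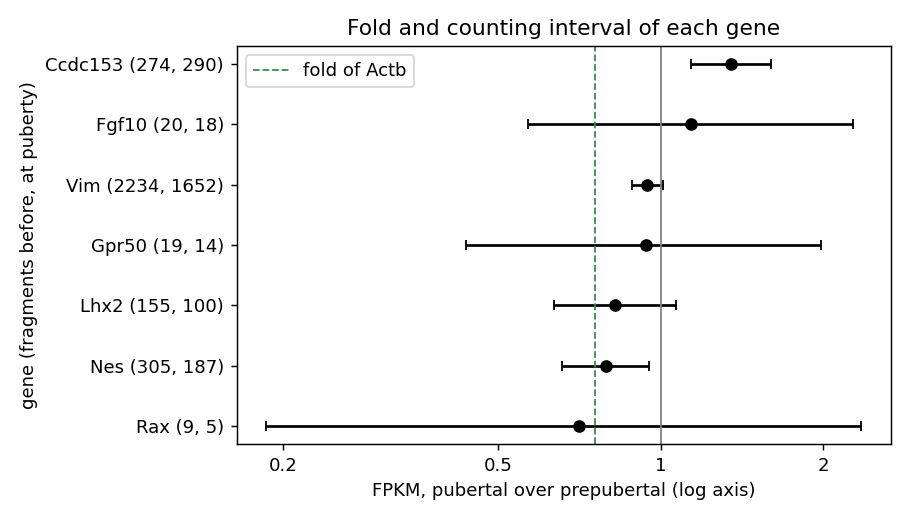
Fold of each gene in FPKM, pubertal over prepubertal (log axis), with its exact 95% counting interval and, in brackets, the fragments in the prepubertal and the pubertal library. The interval of Ccdc153 lies above 1 and that of Nes below 1 and the other 5 include 1 (with Actb made equal, those of Vim and Ccdc153 lie above 1 and none below), and the dashed line marks the fold of Actb, to the left of which only Rax lies.

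Vim and Nes encode intermediate filament proteins that build the cytoskeleton of radial glia and tanycytes and assemble together. Vim (vimentin, ENSRNOG00000018087) was listed at 68.5 FPKM before and 64.7 FPKM at puberty, on 2234 and 1652 fragments. The fold of 0.943 had the narrowest interval of the 7 genes, 0.885 to 1.01. With Actb made equal, the log2 ratio of Vim went from -0.08 to 0.32.

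Nes (nestin, ENSRNOG00000018681), which also marks neural progenitors and young vessels, was listed at 2.77 and 2.20 FPKM, on 305 and 187 fragments. Its fold was 0.792, with an interval of 0.656 to 0.952 that lies below 1, although with Actb made equal it includes 1 and the log2 ratio of -0.24 became 0.05. The 2 transcripts of Nes differed in direction. The longer one, of 5682 nt (ENSRNOT00000025314), went from 1.64 to 0.876 FPKM, and the shorter one, of 5418 nt (ENSRNOT00000025384), from 1.13 to 1.32 FPKM. The longer transcript held 60.5% of the gene's fragments before puberty and 41.1% at puberty. The split between transcripts is an estimate made by the authors' software, and the counting interval of the gene does not cover its error.

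**Figure D3:**
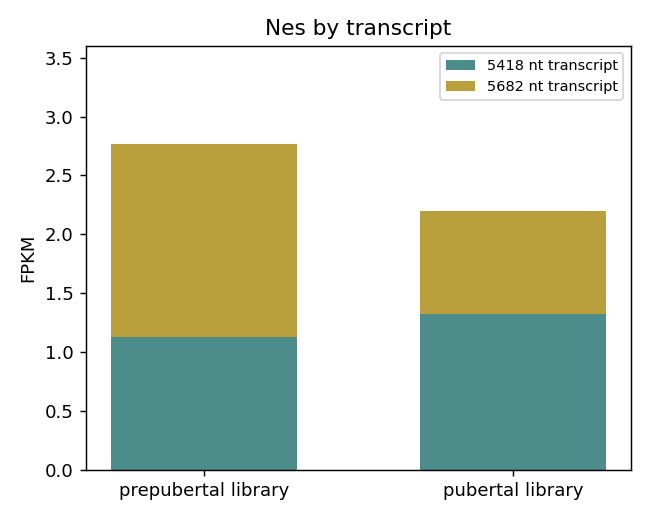
FPKM of Nes in each library, stacked by annotated transcript. The bar is 2.77 FPKM high before puberty and 2.20 at puberty, and the part of the 5682 nt transcript is 1.64 and 0.876 FPKM.

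Ratios in these libraries depended on transcript length, and Nes is among the longest. The 13804 genes with a mean of at least 1 FPKM were put into 10 classes of length with nearly equal numbers of genes. The median log2 ratio went from 0.07 in class 1, with the shortest transcripts, to -0.13 in class 10, to which Nes belongs and where 77.1% of the genes were lower at puberty. The log2 ratio of Nes was -0.24, and the quartiles of its class were -0.25 and -0.01. Centred on the median of the class, the log2 ratio was -0.11 for Nes and for Vim, -0.25 for Lhx2 and -0.24 for Rax. Rax and Gpr50 have a mean below 1 FPKM and were placed in a class by their length only, and the ratio of Rax rests on 9 and 5 fragments. That of Ccdc153 was 0.35, and its uncentred value of 0.40 stood above the upper quartile of class 3, which was 0.20.

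**Figure D4:**
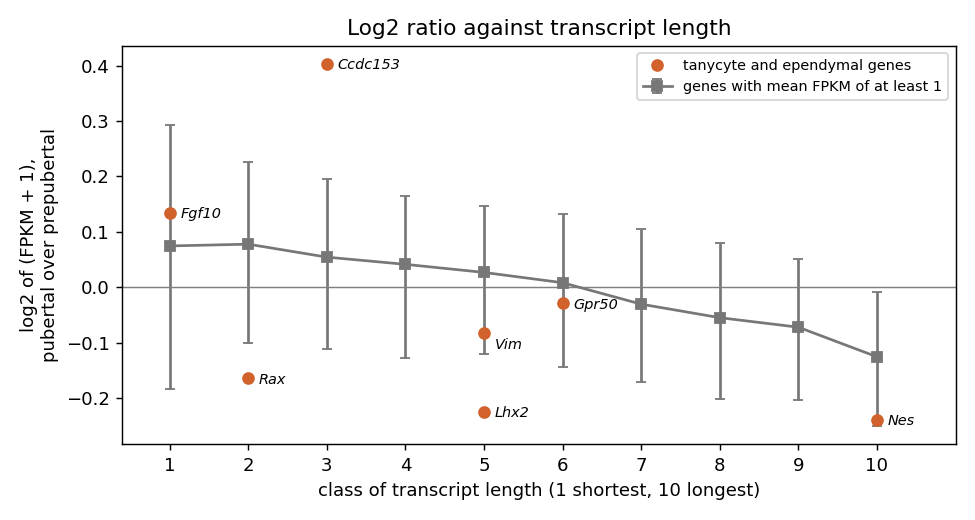
Log2 ratio of (FPKM + 1), pubertal over prepubertal, against the class of transcript length, with medians and quartiles of genes with a mean of at least 1 FPKM (grey) and the 7 genes (orange). The medians go from 0.07 to -0.13 along the axis, Nes lies inside the quartiles of its class, and Ccdc153 lies above and Lhx2 below theirs, as does Rax, which rests on 9 and 5 fragments and, like Gpr50, has a mean below 1 FPKM and was placed by its length.

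Vim and Nes are shared with other cells, which were counted by marker lists. Of 10 genes of endothelium and pericytes 7 were lower at puberty, with a summed level of 195 and 190 FPKM and a median log2 ratio of -0.13 (0.25 with Actb made equal). The highest were Rgs5, a marker of pericytes, at 70.9 and 76.3 FPKM and Cldn5, a tight junction protein, at 70.9 and 65.5 FPKM. Their intervals of the fold included 1 (0.932 to 1.24 and 0.814 to 1.05). With Actb made equal both lay above 1 (1.23 to 1.64 and 1.08 to 1.39). Kdr, the receptor of vascular endothelial growth factor, had the lowest ratio and went from 2.60 to 1.38 FPKM. Its interval lay below 1 on either scale (0.430 to 0.659, and 0.569 to 0.872 with Actb made equal). Of 7 genes of fibroblasts and meninges 7 were lower (4 with Actb made equal), with a summed level of 68.2 and 40.6 FPKM, and Col1a1 went from 9.57 to 2.93 FPKM. Of 5 genes of dividing cells 4 were lower and 1 higher (2 and 3 with Actb made equal), with a summed level of 8.82 and 6.35 FPKM. Top2a had an interval of the fold below 1 on either scale (0.360 to 0.629, and 0.477 to 0.833 with Actb made equal). Cdk1 was at 1.76 and 0.856 FPKM, on 34 and 13 fragments. Its interval of 0.236 to 0.947 became 0.312 to 1.25 with Actb made equal. The intervals of Mki67, Ccnb1 and Birc5 included 1 on either scale. All of these markers were above 0 in both libraries. Their part in the Vim and Nes values was not tested, and in bulk tissue fewer cells of a type and less RNA per cell cannot be told apart.

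Genes of neural stem cells and radial glia, the company in which Nes and Vim are usually expressed, were counted as well. Of 11 such genes 9 were lower and 2 higher at puberty, with a median log2 ratio of -0.13 that became 0.20 with Actb made equal. Fabp7, a fatty acid binding protein of radial glia and astrocytes, had the lowest ratio and went from 162 to 105 FPKM. Its interval of the fold lay below 1 on either scale (0.591 to 0.721, and 0.782 to 0.955 with Actb made equal). Sox2, which keeps progenitors undifferentiated, went from 37.4 to 31.7 FPKM, with an interval of the fold of 0.783 to 0.916 that became 1.04 to 1.21, above 1, with Actb made equal, and Hes5, a target of Notch, from 28.4 to 22.6 FPKM (0.633 to 1.0, and 0.838 to 1.33 with Actb made equal). Of 9 other intermediate filament genes 5 were higher and 4 lower (7 and 2 with Actb made equal). Gfap, the filament of astrocytes and of a part of the tanycytes, was listed at 257 and 288 FPKM. Of the filaments of neurons, Nefl was listed at 326 and 333 FPKM (0.995 to 1.05, and 1.32 to 1.39 with Actb made equal). Nefh was listed at 55.0 and 58.8 FPKM (1.02 to 1.12, and 1.35 to 1.48 with Actb made equal). Nefm went from 46.1 to 33.3 FPKM, with an interval of 0.673 to 0.775 that became 0.891 to 1.03 with Actb made equal.

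Gpr50 is an orphan receptor related to the melatonin receptors and is expressed by tanycytes. Gpr50 (ENSRNOG00000011335) was listed at 0.521 FPKM before and 0.490 FPKM at puberty, on 19 and 14 fragments. The fold was 0.941 with an interval of 0.436 to 1.98, so that a change of up to about 2-fold in either direction was not detectable. Of the melatonin receptors, Mtnr1a had 0.127 and 0.446 FPKM, on 4 and 11 fragments, and Mtnr1b had 1 fragment before puberty and 0 at puberty. The interval of the fold of Mtnr1a was wide and lay above 1 (1.04 to 15.1, and 1.38 to 20.0 with Actb made equal). Of 7 genes of the pituitary, whose pars tuberalis lies against the median eminence, 5 were higher and 2 lower at puberty (6 and 1 with Actb made equal), with a summed level of 31.8 and 44.5 FPKM. Cga, the shared subunit of the glycoprotein hormones, was the highest of them at 24.6 and 30.0 FPKM, with an interval of the fold of 0.995 to 1.48 (1.32 to 1.96 with Actb made equal). Tshb was at 4.68 and 5.28 FPKM, with an interval that included 1 on either scale (0.640 to 1.99, and 0.848 to 2.64 with Actb made equal). Gh1 was at 0.872 and 4.09 FPKM, on 10 and 37 fragments. Its interval lay above 1 on either scale (2.29 to 10.6, and 3.03 to 14.0 with Actb made equal). In the prepubertal library Prl and Fshb were listed at 0, while the pubertal library had 3.40 FPKM of Prl and 0.396 FPKM of Fshb. The 2 lower genes were Lhb, at 1.44 and 1.29 FPKM, and Pou1f1, at 0.155 and 0.0565 FPKM, named like Fshb after their values were seen. The part of pituitary tissue in the Gpr50 value was not tested.

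Fgf10, a fibroblast growth factor secreted by the tanycytes of the ventricular floor, is the only ligand among the 8 genes. Fgf10 (ENSRNOG00000012278) was listed at 2.46 and 2.80 FPKM, on 20 and 18 fragments, a fold of 1.14 with an interval of 0.568 to 2.27. Its annotated transcript is 648 nt long, the shortest of the 7 genes. Of 10 genes that bind, resemble or respond to Fgf10, 8 were lower and 2 higher at puberty, with a median log2 ratio of -0.30 that became 0.07 with Actb made equal. Fgfr2, whose epithelial form is the main receptor of Fgf10, was listed at 19.8 and 21.7 FPKM, with an interval of the fold of 1.02 to 1.17 (1.35 to 1.55 with Actb made equal). Fgfr1 went from 22.4 to 15.4 FPKM, with an interval of 0.622 to 0.766 that became 0.823 to 1.01 and included 1 with Actb made equal. Spry4, an inhibitor that FGF signals induce, went from 2.22 to 1.25 FPKM, with an interval below 1 on either scale (0.436 to 0.726, and 0.577 to 0.961 with Actb made equal). Dusp6, a phosphatase that limits ERK signals, went from 16.1 to 13.5 FPKM, with an interval of 0.750 to 0.933 that became 0.993 to 1.24 and included 1 with Actb made equal. These receptors and inhibitors serve other growth factors in many cell types, so their levels in whole hypothalamus are not those of tanycytes.

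Ccdc153 encodes a coiled-coil protein of motile cilia and is used as a marker of ependymal cells. Ccdc153 (ENSRNOG00000039086) was higher in the pubertal library, at 16.2 against 12.0 FPKM, on 290 and 274 fragments. Its fold of 1.35 was the highest of the 7 genes, and its interval of 1.14 to 1.60 lay above 1. The log2 ratio of 0.40 was between 0.35 and 0.79 in the 7 alternatives computed. Ratios between genes within a library do not depend on the scale. The level of Ccdc153 was 0.175 times that of Vim before puberty and 0.250 times at puberty, and 4.32 and 7.36 times that of Nes. The length classes of Ccdc153, Vim and Nes had median log2 ratios of 0.05, 0.03 and -0.13. The part of transcript length in these changes was not tested. The counting intervals of the folds of Ccdc153 and Vim did not overlap, nor did those of Ccdc153 and Nes. In the other pairs computed, Nes with Vim and Lhx2 with Vim, the intervals overlapped. The share of gene pairs without overlap among all genes was not computed.

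The other cilia genes lay on both sides of 0. Of 31 genes of motile cilia and of the cells that bear them 19 were higher and 12 lower at puberty, with a median log2 ratio of 0.02 and a summed level of 244 and 255 FPKM, and 0 changed by 1.5-fold in FPKM + 1. The list holds 2 secreted proteins, Rarres2 and Mia, that are no part of the cilium, and Mia rests on 1 fragment in each library. With Actb made equal 29 of the 31 were higher. In 1 of the 31, Tekt4, a tektin of the axoneme, the log2 ratio of 0.47 was above the 0.40 of Ccdc153. Fam183b, a gene of ciliated cells, was listed at 27.6 and 36.7 FPKM. Dynlrb2, a dynein light chain, was listed at 47.4 and 44.9 FPKM and Rarres2, the chemoattractant chemerin, at 37.0 and 35.7 FPKM. Enkur, a protein of the ciliary axoneme, had the lowest log2 ratio of (FPKM + 1), though not the lowest fold in FPKM. It went from 12.8 to 8.54 FPKM, with an interval of the fold of 0.538 to 0.830 (0.713 to 1.10 with Actb made equal). The counting interval of the fold lay above 1 for 2 of the 31 genes, Tekt4 and the radial spoke protein Rsph1, both named after their values were seen, below 1 for 1, Enkur, and included 1 for 28, while with Actb made equal it lay above 1 for 21 and below 1 for 0. The shares of all genes were the 16.7% above and 20.3% below given before, and 59.9% and 1.91% with Actb made equal. Of 9 regulators that act with Foxj1 in the formation of multiple cilia, 4 were higher, 3 lower and 2 listed at 0 in both libraries. The highest of them was Rfx3, a factor that binds the promoters of cilia genes, at 4.78 and 5.73 FPKM (0.983 to 1.47, and 1.30 to 1.95 with Actb made equal).

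**Figure D5:**
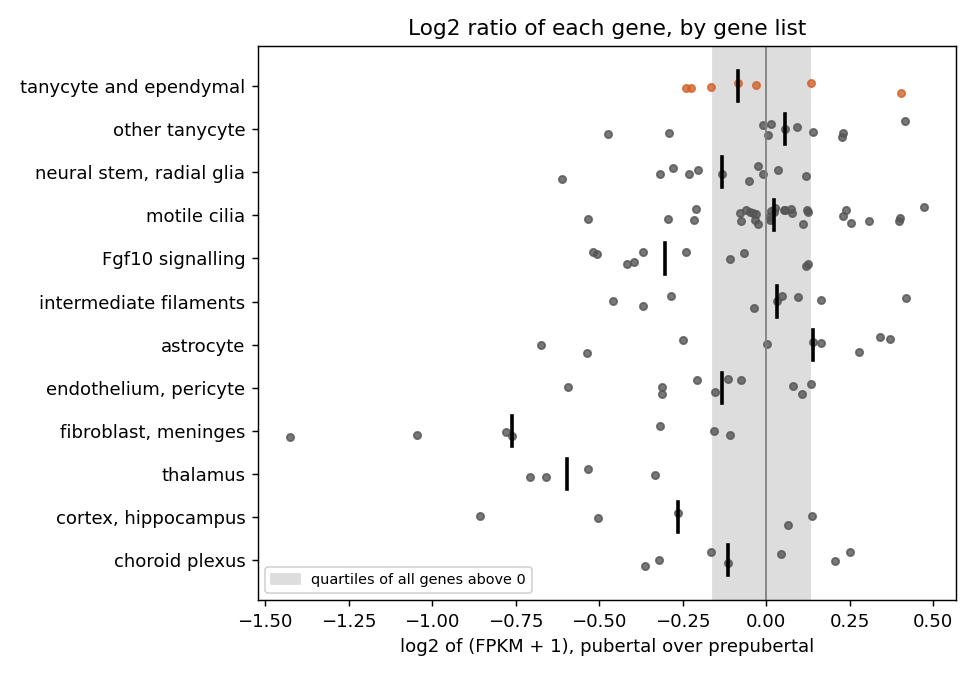
Log2 ratio of (FPKM + 1), pubertal over prepubertal, of each gene (points) in the 7 tanycyte and ependymal genes (orange) and 11 other gene lists (grey), with list medians as black bars and the quartiles of all genes above 0 as the edges of the grey band. Genes of the motile cilia list centre on 0.02, the other tanycyte genes on 0.06 and the neural stem and radial glia genes on -0.13, which became 0.20 with Actb made equal, and the lowest point is Col1a1 of the fibroblast list at -1.43.

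The tanycyte genes were set beside a second list of tanycyte genes. Of these 11 genes 8 were higher and 3 lower at puberty (9 and 2 with Actb made equal), with a median log2 ratio of 0.06 and a summed level of 284 and 301 FPKM. Crym, which binds thyroid hormone, was listed at 34.4 and 34.7 FPKM, with an interval of the fold of 0.898 to 1.13 (1.19 to 1.5 with Actb made equal). Cd59, which protects cells from complement, was listed at 153 and 179 FPKM (1.12 to 1.23, and 1.48 to 1.62 with Actb made equal). Col25a1, a membrane collagen, was listed at 48.2 and 34.5 FPKM, with an interval of 0.644 to 0.793 that became 0.852 to 1.05 and included 1 with Actb made equal. Neurons and other glia also express these 3 genes. Of 9 astrocyte genes 6 were higher and 3 lower (7 and 2 with Actb made equal), with a summed level of 2010 and 1950 FPKM, and of 7 genes of the choroid plexus, the epithelium that continues the ependyma, 3 were higher and 4 lower (5 and 2 with Actb made equal), with Ttr at 29.0 and 23.0 FPKM and an interval of its fold of 0.647 to 0.962 that became 0.857 to 1.27 and included 1 with Actb made equal. Every one of these markers was above 0 in both libraries, and their part in the values of Vim and Ccdc153 was not tested.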

How the data were processed

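Hypothalamic RNA was depleted of ribosomal RNA by the authors and sequenced as strand-specific paired ends. They aligned the reads with TopHat and assembled transcripts with Scripture and Cufflinks. The deposited FPKM per transcript were estimated by the authors with Cuffdiff 2.1.1, and the submitters' processing notes name the build Rnor_5.0, while the paper's methods name an annotation of Rnor_6.0, so no coordinates are given. Columns of the authors' own comparison (ratios, p-values, q-values) and the lncRNA files were not used. Transcript lengths and gene names came from the deposited comparison table.

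FPKM were summed per gene name, ignoring case, and log2((pubertal + 1) / (prepubertal + 1)) was computed with no further scaling. With 1 column per stage nothing was tested. The mean fragment length and the FPKM worth 1 fragment were found per library as the values that made most low FPKM (up to 15 fragments) of single-transcript genes of 800 to 6000 nt whole, which gave 256 and 252 nt. Intervals are exact, Poisson for a level and Clopper-Pearson for a fold, at 95%. For genes with several transcripts the fragments were summed and rounded. On simulated data with 15942 transcripts, the interval held the true fold of 196 of 200 changed transcripts.

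The genes and the 17 marker lists were chosen with earlier results of these data known. From each list at most the 3 highest genes and the gene with the largest log2 ratio were named, and any gene of lists of up to 6, and Tekt4, Rsph1, Mia, Hcrt, Fshb, Lhb and Pou1f1 were named after their values were seen. Alternatives were a pseudocount of 0.1, scaling to equal medians or equal Actb, the transcript with the highest FPKM, the FPKM of the comparison table, centring within 10 classes of length, a mean of at least 1 FPKM and a threshold of 1.5-fold. The setting without any pseudocount, and equal Actb for the lists and the counts of genes, were added after the data were seen. Computations ran in Python 3.11.15 (scipy 1.17.1, pandas 2.3.3, numpy 2.4.6), and figures were drawn with matplotlib 3.10.9.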

Additional observations from a re-analysis of the deposited data

How the results depend on the processing

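No paired analysis was possible because each stage has 1 library. With scaling to equal Actb the median log2 ratio of the 7 genes became 0.12, with Vim at 0.32, Nes at 0.05, Lhx2 at 0.10 and Gpr50 at 0.12, all of them negative on the deposited scale, so that 1 of the 7 genes was lower in place of 5. The median became 0.42 for the other tanycyte genes and 0.33 for the motile cilia genes, and 14 of the 17 lists had a median above 0. Actb is 1 gene, and which scale is closer to the tissue was not tested. Without scaling, the median log2 ratio of genes above 0 in both libraries was -0.01. This is smaller than the change of any of the 7 genes, so making it 0 could not turn the sign of any of them. Over the 7 alternatives, of which the pseudocounts, the highest transcript and the second table could not turn the sign of genes with 1 transcript, log2 ratios were -0.50 to -0.03 for Rax, 0.06 to 0.44 for Fgf10 and 0.35 to 0.79 for Ccdc153. With a mean of at least 1 FPKM required, which removes Rax and Gpr50, 3 genes were lower. The 1.5-fold threshold gave 0 of the 7 genes on the deposited scale and 1, Ccdc153, with Actb made equal, and the 2-fold threshold 0 on both. Without a pseudocount the log2 ratio of Rax was -0.50. The Nes ratio was -0.50 for its transcript with the highest FPKM alone. The values of the 7 genes were identical in both deposited tables. Depth limits Rax, Gpr50 and Fgf10 most, with 5 to 20 fragments in a library.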
